A study of Mus musculus with 12 samples.

Results

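The SLC25 family was followed in liver RNA-seq of mice that either ran or rested. Members were all rows of the count table whose symbol reads Slc25a followed by a number, with Slc25a15, Slc25a17 and Slc25a20 left out, which gave 42 of the 17432 genes in the table. Of these, 37 had a mean count of at least 10 over the 12 libraries and are described here, and all 37 entered the test across all genes. The other 5 were Slc25a53 (mean count 5.448), Slc25a2 (5.083), Slc25a18 (3.667), Slc25a43 (0.417) and Slc25a31 (0.333). All 12 livers came from male wild-type C57BL/6J mice aged 8 to 10 weeks whose feeding was confined to the daytime for 3 days. After refeeding, food was withdrawn from all of them, and 6 mice (Exercise) ran at 14 m/min for 3 h while 6 (Sedentary) stayed at rest. The comparison asks which liver transcripts differ after a single postprandial run. Replicate numbers recur in both groups, but nothing in the labels ties a runner to a resting mouse.

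SLC25 proteins are carriers of the inner mitochondrial membrane. Each is built from repeats of a small fold with a pair of transmembrane helices, and most exchange a solute of the matrix for one of the cytosol: nucleotides, phosphate, carboxylic acids, amino acids, cofactors or metal ions. In hepatocytes these exchanges link mitochondria to gluconeogenesis, urea synthesis, lipogenesis and respiration, and the proteins reach the membrane through the TOM pore and the TIM22 insertase. A few relatives sit in the outer membrane or have no settled substrate.

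Libraries held 18971992 to 19324461 counts in the Sedentary group and 18745379 to 19001010 in the Exercise group. Of the 12344 genes tested across both groups, 5229 changed (edgeR adjusted p under 0.05), which is 42.4% of them. Hepatocyte markers summed to between 69800 and 86500 FPKM (fragments scaled by transcript length and library size) in Sedentary livers and between 81300 and 85000 in Exercise livers. A list of 7 striated muscle markers was low throughout but lower after exercise, at 3.81 to 8.04 FPKM in sum against 0.1 to 3.57, and all 4 of those that could be tested fell. Of 6 liver endothelial markers 2 rose (Lyve1 and Pecam1, at 1.18 and 0.49 on the log2 scale) and 1 fell, with sums of 63.4 to 85.8 FPKM at rest and 62.7 to 96.1 after exercise. Of 6 stellate cell markers 2 fell (Lrat and Des, at -0.59 and -0.40), which is 33.3% called, against 42.4% of all genes. The other 4 lay between -0.12 and 0.14, and the sums of all 6 were 69.1 to 101 and 64.9 to 97.4 FPKM. Of 7 tested hepatocyte markers 1 rose, and 0 of 6 Kupffer cell and 0 of 5 bile duct markers passed the test. The part of these cells in the values below was not tested. Tissue was measured whole, so fewer cells of a type and less RNA per cell cannot be told apart in any value below.

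Of the 37 SLC25 genes, 21 changed (56.8%, against 42.4% of all genes). The 11 that rose make up 29.7% of the family, beside 21.1% of all genes that rose. The 10 that fell make up 27.0%, beside 21.3%. With scaling by library size alone the split was 10 and 12 members, beside 1767 and 3735 of all genes, and this scaling shifts the median log2 fold change of all genes to -0.098. A change of at least 2-fold was found for 4 members (10.8%, against 3.94% of all genes): Slc25a22, Slc25a51 and Slc25a32 rose and Slc25a35 fell. In 17 members (45.9%) the 6 Exercise livers lay wholly above or wholly below the 6 Sedentary livers in CPM (counts scaled by library size, with TMM factors), against 22.3% of all genes. The median of the log2 fold changes of the 37 members was 0.00285, beside -0.0028 for all genes, while the median size of the change was 0.38 beside 0.21. The members thus moved in both directions, and no common shift of the family was seen.

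**Figure D1:**
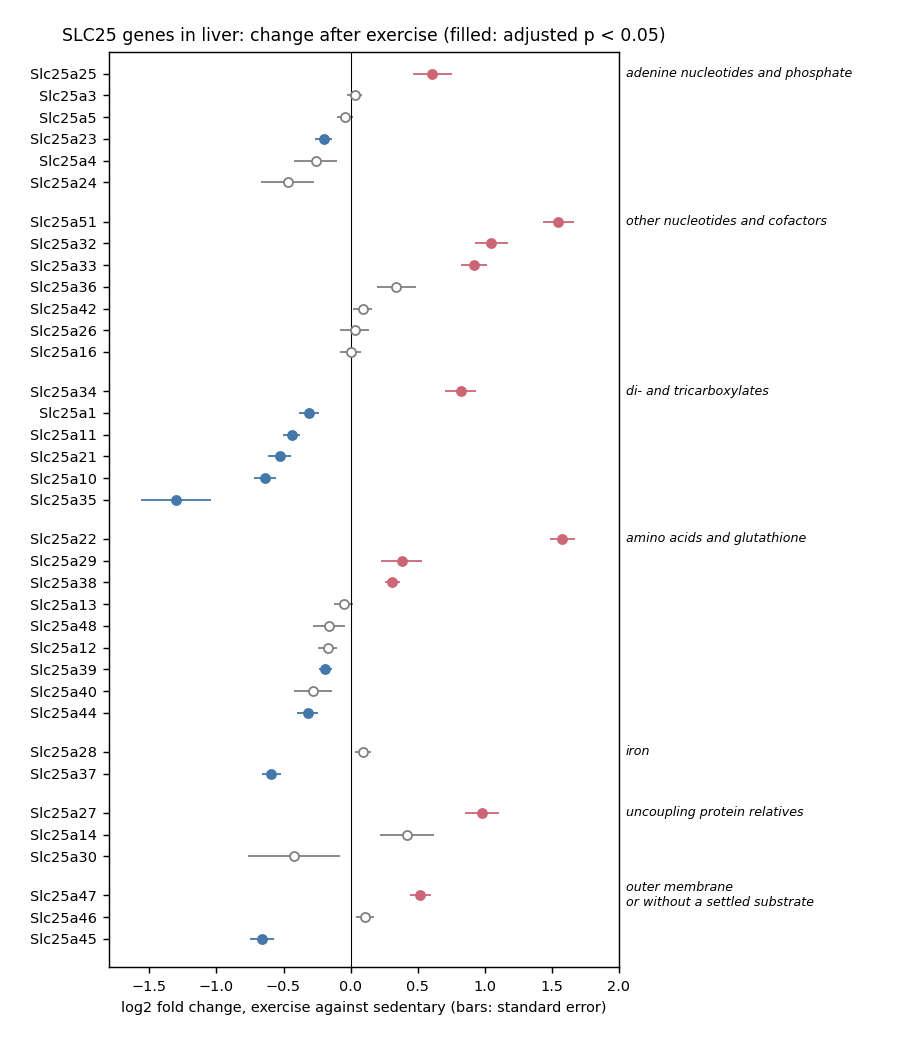
log2 fold change (exercise against sedentary, horizontal axis) of 36 of the 37 SLC25 genes, grouped by listed role. Points are edgeR estimates from 6 livers a group, bars are standard errors, filled points passed an adjusted p of 0.05 (red higher, blue lower). Slc25a22 (1.58) and Slc25a51 (1.55) lie farthest to the right and Slc25a35 (-1.30) farthest to the left.

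Sequence upstream of members is shown for the gene with the largest rise (Slc25a22), and for 3 nucleotide carriers whose levels or ratios come up below (Slc25a25, Slc25a33 and Slc25a36). Windows from 250 bases before to 50 bases after RefSeq gene starts on GRCm38.p6 were on hand for 28 of the 37 members. Each window is shown here without bases past the start or in annotated exons. Capitals mark TGACGTCA, the cAMP response element, or its shorter form TGACG read on either strand. A gene with several starts has several windows, and it counts as holding a motif if any of them does. The full element was found in 2 of the 28 members (7.14%), Slc25a25 and Slc25a36, and in 2.87% of the 9918 tested genes with a window (1.55% of all windows). Slc25a25 has 3 windows, of which 1 holds the element and is the one shown. Slc25a22 also has 3, none with either form, and the one farthest upstream is shown. The shorter form, which the full element contains, was found in 9 members (32.1%) and in 29.7% of tested genes. These matches describe letters only, and binding was not measured.
Slc25a22, chr7:141437893-141438112, minus strand: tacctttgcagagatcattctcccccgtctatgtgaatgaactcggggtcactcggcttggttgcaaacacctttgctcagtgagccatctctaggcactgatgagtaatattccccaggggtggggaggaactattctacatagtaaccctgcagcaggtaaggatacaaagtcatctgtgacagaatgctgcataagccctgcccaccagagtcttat
Slc25a25, chr2:32424067-32424316, minus strand: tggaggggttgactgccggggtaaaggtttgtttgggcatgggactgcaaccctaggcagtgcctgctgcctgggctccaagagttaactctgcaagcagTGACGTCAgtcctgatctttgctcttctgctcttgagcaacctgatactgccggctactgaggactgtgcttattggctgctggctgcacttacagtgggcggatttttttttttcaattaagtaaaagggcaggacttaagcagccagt
Slc25a33, chr4:149774278-149774517, minus strand: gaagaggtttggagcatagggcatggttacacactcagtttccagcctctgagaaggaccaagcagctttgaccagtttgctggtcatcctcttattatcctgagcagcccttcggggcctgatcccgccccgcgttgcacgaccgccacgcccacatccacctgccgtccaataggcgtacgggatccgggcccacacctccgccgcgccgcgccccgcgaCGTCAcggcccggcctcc
Slc25a36, chr9:97111158-97111291, minus strand: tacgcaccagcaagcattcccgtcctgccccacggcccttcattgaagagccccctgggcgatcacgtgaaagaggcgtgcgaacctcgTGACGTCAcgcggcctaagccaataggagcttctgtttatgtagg
The windows were also searched on both strands for CACGTG, the palindromic E-box, which was found in 5 members (17.9%, against 9.76% of tested genes). TGATGNAA, a form of the site of amino acid response factors, and the full palindromic glucocorticoid response element were found in 0 of the 28 members, beside 2.53% and 0.333% of tested genes. Slc25a36 and Slc25a33 each held both CACGTG and TGACG in their windows. For Slc25a33 the CACGTG is not in the bases shown, which leave out those past the start or in annotated exons.

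Carriers of adenine nucleotides and phosphate supply the ATP synthase and export its product. Of 6 members with this role, 1 rose, 1 fell and 4 did not pass the test (33.3% called, against 42.4% of all genes). Slc25a5, the adenine nucleotide translocase of most non-muscle tissues, was the most abundant member per length, at 381 ± 27.8 FPKM (mean ± SD, n = 6) in Sedentary and 347 ± 19.8 in Exercise livers. Its CPM values overlapped widely, with a lowest, median and highest of 403, 469 and 493 at rest and 420, 448 and 475 after running (log2 fold change -0.04 ± 0.059 SE, edgeR adjusted p = 0.632).
Slc25a3, the phosphate carrier, had rank 3 in the family at 240 ± 15.1 and 230 ± 18.2 FPKM. It also overlapped, at 314, 335 and 357 CPM against 314, 343 and 368 (log2 fold change 0.03 ± 0.055, edgeR adjusted p = 0.697). The carriers that ATP synthesis depends on most directly thus showed no change that passed the test.

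The calcium-regulated ATP-Mg/phosphate carriers adjust the matrix pool of adenine nucleotides, and the 3 measured ones did not move alike. Slc25a25 had 85.2, 153 and 181 CPM (lowest, median, highest) at rest and 195, 225 and 258 after exercise. All 6 Exercise livers lay above the highest Sedentary liver, and Sedentary replicate 4 lay far below the rest of its group. The fitted rise was 1.52-fold (log2 0.61 ± 0.146 SE, edgeR adjusted p = 0.00492). It stayed between 0.49 and 0.68 on the log2 scale with any 1 library left out.
Slc25a23, the abundant liver paralog, went from 370, 412 and 458 CPM to 334, 365 and 377. In 5 of 6 Exercise livers it was below every Sedentary liver (log2 fold change -0.20 ± 0.064, edgeR adjusted p = 0.019), a call that was lost without Exercise replicate 6. Its gene overlaps Crb3 on the opposite strand, which fell by 0.39 on the log2 scale (edgeR adjusted p = 0.000888). Slc25a24, the scarce paralog, read 0.857, 1.08 and 1.34 CPM at rest and 0.551, 0.76 and 0.992 after exercise (log2 fold change -0.47 ± 0.196, edgeR adjusted p = 0.0613), on a mean count of only 17.66.
Slc25a4, the translocase of heart and skeletal muscle, is a minor transcript here at 3.00 ± 0.432 FPKM in Sedentary livers. It read 3.16, 3.64 and 4.34 CPM against 1.74, 3.16 and 4.34 (log2 fold change -0.26 ± 0.16, edgeR adjusted p = 0.2). The striated muscle markers given above were lower in the same livers, and their part in the Slc25a4 values was not tested.

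Among carriers of other nucleotides and cofactors, 4 of 8 rose, 0 fell and 4 did not pass the test (50% called, against 42.4% of all genes). Slc25a51 imports NAD+ into mitochondria. It read 49.7, 58.6 and 75.4 CPM at rest and 162, 168 and 213 after exercise, so that the lowest runner had more than the highest resting mouse. The rise was 2.92-fold (log2 1.55 ± 0.116, edgeR adjusted p = 2.22e-07), and Slc25a51 moved from rank 16 to rank 10 of the family per length.
Slc25a32, the folate and FAD carrier, went from 13.8, 18.3 and 25 CPM to 35.8, 37.9 and 40.9. The groups did not overlap, and the Exercise livers were closer together than the Sedentary ones. Its rise was 2.07-fold (log2 1.05 ± 0.124, edgeR adjusted p = 1.27e-05).
Slc25a33, a carrier of pyrimidine nucleotides, went from 10.5, 11.5 and 14.3 CPM to 17.6, 24.0 and 25.2, again without overlap. The rise was 1.89-fold (log2 0.92 ± 0.096, edgeR adjusted p = 1.15e-06). Slc25a36, the other pyrimidine nucleotide carrier, read 1.85, 2.22 and 2.68 CPM against 2.35, 2.66 and 3.59 and did not pass the test (log2 fold change 0.34 ± 0.146, edgeR adjusted p = 0.0699).
Slc25a42, which carries coenzyme A, was at 0.09, Slc25a26, which carries S-adenosylmethionine, at 0.03, and Slc25a16, a proposed coenzyme A carrier, at 0.00 on the log2 scale. None of these 3 passed the test, and all of them changed sign under scaling by library size alone.

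Carriers of di- and tricarboxylates move citrate, malate, succinate and 2-oxo acids. The list of 6 measured members includes Slc25a34 and Slc25a35, for which this role is less certain. All 6 changed (beside 42.4% of all genes), 5 falling (21.3% of all genes) and 1 rising (21.1%). In 5 of the 6 the groups did not overlap (22.3%). Slc25a10, the dicarboxylate carrier, which exchanges malate or succinate for phosphate, read 159, 182 and 204 CPM at rest and 99.7, 121 and 138 after exercise. Every runner was below every resting mouse, a fall of 1.55-fold (log2 fold change -0.64 ± 0.081, edgeR adjusted p = 8.76e-06).
Slc25a11, the 2-oxoglutarate/malate carrier of the malate-aspartate shuttle, went from 63.2, 70.2 and 79.8 CPM to 49.1, 50.7 and 57.5 (log2 fold change -0.44 ± 0.064, edgeR adjusted p = 3.32e-05). Its gene overlaps Rnf167 on the opposite strand, and Rnf167 rose by 0.30 on the log2 scale (edgeR adjusted p = 0.00286). Slc25a21, which carries 2-oxoadipate from lysine and tryptophan breakdown, went from 9.53, 9.81 and 11.9 CPM to 6.29, 6.96 and 7.93 (log2 fold change -0.53 ± 0.086, edgeR adjusted p = 1.02e-04). Neither gene overlapped between groups.
Slc25a1 exports citrate for fatty acid and sterol synthesis and was among the abundant members, at 134 ± 17.6 FPKM at rest and 101 ± 5.95 after exercise. It fell by 0.31 on the log2 scale (edgeR adjusted p = 0.00233), with 5 of 6 Exercise livers below every Sedentary liver.
Slc25a34 and Slc25a35 are close relatives whose substrates are less well known, and they moved in opposite directions. Slc25a34 went from 3.43, 3.92 and 4.84 CPM to 5.84, 7.23 and 8.29 (log2 fold change 0.82 ± 0.116, edgeR adjusted p = 2.29e-05), with no overlap. Slc25a35 went from 0.908, 1.38 and 2.00 CPM to 0.331, 0.577 and 0.906 (log2 fold change -1.30 ± 0.261, edgeR adjusted p = 6.24e-04). The Slc25a35 groups all but touched, on a mean count of 20, and the overlapping opposite-strand gene Rangrf was at -0.32 (edgeR adjusted p = 0.0655).

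**Figure D2:**
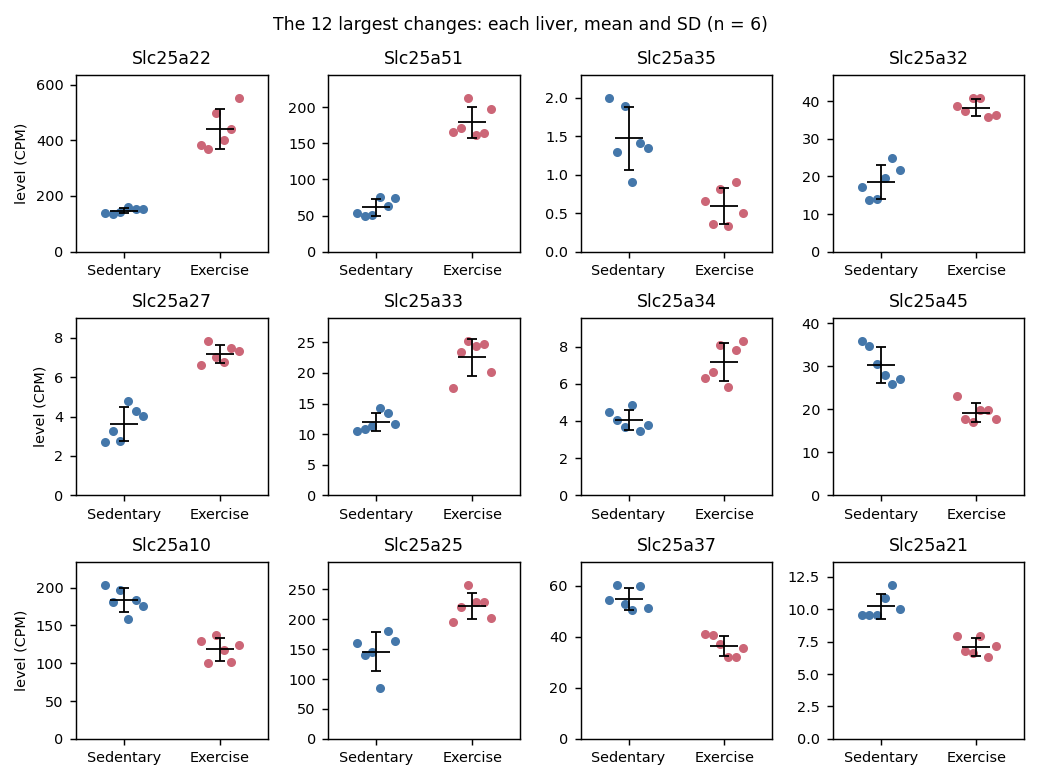
Level in CPM (vertical axes, each starting at 0) of the 12 SLC25 genes with the largest changes past the test, in each of the 6 Sedentary (blue) and 6 Exercise (red) livers, with the mean and SD in black. In every panel the groups are separate. For Slc25a35 the gap is from 0.906 to 0.908 CPM, and for Slc25a22 it is from 160 to 369 CPM.

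Among carriers of amino acids and glutathione, 3 of 9 rose, 2 fell and 4 did not pass the test (55.6% called, against 42.4% of all genes). Slc25a22 imports glutamate with a proton and showed the largest change of the family. It read 134, 148 and 160 CPM at rest and 369, 421 and 553 after exercise, and the lowest runner lay far above the highest resting mouse. The rise was 2.98-fold (log2 1.58 ± 0.091, edgeR adjusted p = 2.5e-09), and with any 1 library left out it lay between 1.51 and 1.62. Per length it went from 59.8 ± 3.25 to 167 ± 25.1 FPKM. Slc25a18, the second glutamate carrier, had 1 to 5 counts in every liver and could not be compared.
Slc25a38, which brings in glycine for haem synthesis, rose by 0.31 on the log2 scale (edgeR adjusted p = 2.16e-04), with all 6 runners above the resting mice. Slc25a29, a carrier of basic amino acids, was higher by 0.38 ± 0.15 (edgeR adjusted p = 0.0495). That call was lost in 11 of the 12 fits that left out 1 library, Sedentary replicate 2 being the exception.
Slc25a39, which imports glutathione, had rank 2 by abundance, at 324 ± 17.4 FPKM at rest and 264 ± 15.8 after exercise. Its CPM went from 428, 431 and 466 to 378, 381 and 389, and although the change was small the groups were separate (log2 fold change -0.19 ± 0.048, edgeR adjusted p = 0.00344). Slc25a40, its scarce paralog, was at -0.28 ± 0.142 (edgeR adjusted p = 0.122). Slc25a44, which carries branched-chain amino acids, fell by 0.32 on the log2 scale (edgeR adjusted p = 0.00331), with 5 of 6 runners below every resting mouse.
The aspartate/glutamate exchangers of the malate-aspartate shuttle, citrin (Slc25a13, -0.05) and aralar (Slc25a12, -0.17), did not pass the test (edgeR adjusted p = 0.603 and 0.0695). Slc25a48, linked to choline transport but counted in this group, was at -0.16 (edgeR adjusted p = 0.316).

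The iron carriers separated. Slc25a37, mitoferrin-1, which is best known from erythroid cells, read 50.4, 53.6 and 60.5 CPM at rest and 32.1, 36.5 and 41.0 after exercise, without overlap (log2 fold change -0.59 ± 0.073, edgeR adjusted p = 6.43e-06). Slc25a28, mitoferrin-2, the form of most other tissues, read 16.6, 17.7 and 19.0 CPM against 17.0, 19.2 and 20.3 (log2 fold change 0.09 ± 0.06, edgeR adjusted p = 0.256). Of the 7 erythroid markers 4 could be tested and 0 passed the test, at -0.29 to -0.18 on the log2 scale. The sum of all 7 was 527 to 825 FPKM at rest and 507 to 634 after exercise. The part of such cells in the Slc25a37 values was not tested. Relatives of the uncoupling proteins were scarce. Slc25a27, also called UCP4, went from 2.7, 3.63 and 4.79 CPM to 6.62, 7.18 and 7.83 (log2 fold change 0.98 ± 0.13, edgeR adjusted p = 1.2e-05), without overlap. Slc25a14 (0.42) and Slc25a30 (-0.42) did not pass the test (edgeR adjusted p = 0.107 and 0.36).

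Among 3 members of the outer membrane or without a settled substrate, 1 rose and 1 fell (66.7% called, against 42.4% of all genes). Slc25a47, known for its high expression in liver, had rank 4 in the family at 153 ± 13.7 FPKM at rest and 205 ± 14.3 after exercise. It read 197, 227 and 268 CPM against 300, 311 and 376, without overlap, a rise of 1.43-fold (log2 0.52 ± 0.077, edgeR adjusted p = 3.81e-05). In the GENCODE annotation of GRCm38 the outermost starts of Slc25a47 (plus strand) and Slc25a29 (minus strand) lie head to head on chromosome 12 with 162 bases between them. That GENCODE start of Slc25a47 is at 108836046, whereas the bases before its RefSeq start lie at 108850879 to 108851128, so the closeness depends on the annotation. Slc25a45 went from 25.9, 29.2 and 35.8 CPM to 17.0, 18.8 and 23.1 (log2 fold change -0.66 ± 0.091, edgeR adjusted p = 1.89e-05). Slc25a46, an outer membrane protein tied to mitochondrial fusion, was at 0.11 (edgeR adjusted p = 0.228).

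FPKM allows levels to be compared between genes. Without TMM factors, the FPKM sum over the 37 members was 1738 to 1892 at rest (median 1791) and 1731 to 1867 after exercise (median 1807). The TMM factors used for CPM were 0.96997 to 1.0868 in Sedentary and 0.91406 to 1.0106 in Exercise libraries, and a lower factor gives a higher scaled value. The overlap of these sums thus depends on the scaling and does not show an unchanged total. The make-up of the summed FPKM shifted toward some members and away from others. Slc25a22 went from 3.32% to 9.30% of it and from rank 7 to rank 5. Slc25a47 went from 8.47% to 11.4% and Slc25a51 from 0.791% to 2.14%. In the other direction Slc25a39 went from 17.9% to 14.7%, Slc25a5 from 21.1% to 19.3% and Slc25a1 from 7.38% to 5.61%. Slc25a5, Slc25a39, Slc25a3, Slc25a47 and Slc25a23, the 5 with the highest mean, held 66.5% to 69.7% of the sum at rest and 62.3% to 65.4% after exercise. These shares are a description and were not tested.

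**Figure D3:**
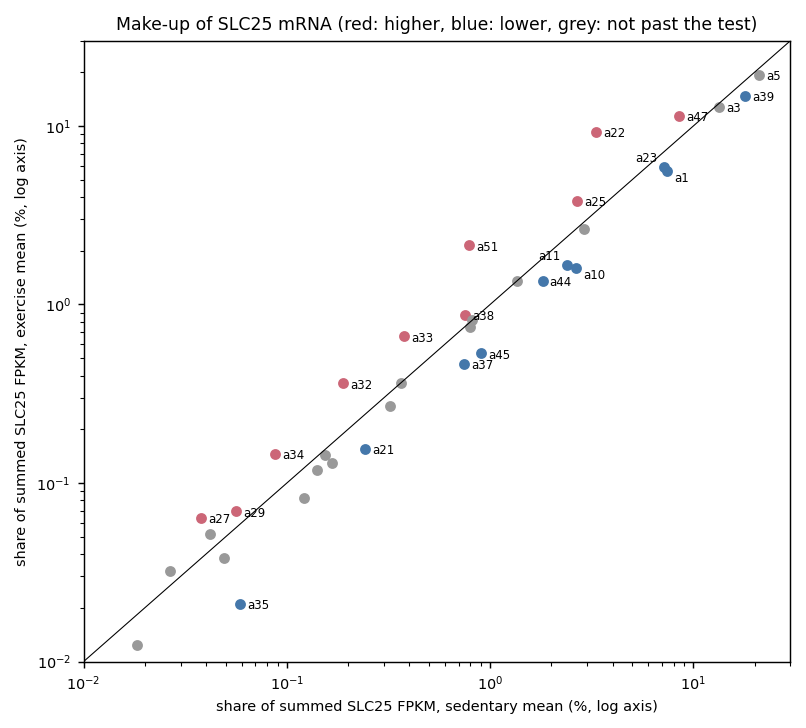
Share of each of 36 SLC25 genes in the summed FPKM of the 37 (%, both axes logarithmic), as the mean of 6 Sedentary livers (horizontal) against the mean of 6 Exercise livers (vertical). The line marks equal shares, red genes rose and blue genes fell in the edgeR test, grey genes did not pass it. Labels drop the prefix Slc25, and Slc25a22 (a22, 3.32% to 9.30%) lies farthest above the line among the abundant members.

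Related carriers were set against each other as ratios within a liver, which do not depend on scaling between libraries. Of 10 listed pairs, 9 could be computed, and 4 changed in a two-sided exact permutation test over the 924 relabellings, with p-values adjusted over the 9 pairs. The smallest p this design allows is 0.00216. Slc25a23 was 2.75 times Slc25a25 at rest (range 2.16 to 4.39) and 1.54 times after exercise (1.39 to 1.79), with no overlap. The difference in log2 ratio (exercise minus sedentary) was -0.83 (exact permutation adjusted p = 0.00649). Slc25a25 was 143 times Slc25a24 at rest and 313 times after exercise. The log2 ratio of Slc25a24 to Slc25a25 thus differed by -1.13 (exact permutation adjusted p = 0.00649), the largest move of the 9. Both comparisons share Slc25a25.
Slc25a28 was 1.10 times Slc25a37 at rest (1.01 to 1.26) and 1.75 times after exercise (1.37 to 2.08), again without overlap. Here the difference in log2 ratio was 0.68 (exact permutation adjusted p = 0.00649). Slc25a33 was 14.2 times Slc25a36 at rest and 20.7 times after exercise, with overlapping ranges (difference in log2 ratio 0.54, exact permutation adjusted p = 0.039). That last call was lost without Sedentary replicate 2 or 6 (adjusted p = 0.0536 by the exact permutation test in each case) and without Exercise replicate 1, 4, 5 or 6 (0.0536 to 0.0682).
The other 5 pairs did not pass, with differences in log2 ratio of -0.27 for Slc25a4/Slc25a5, -0.12 for Slc25a12/Slc25a13, 0.29 for Slc25a23/Slc25a24, 0.08 for Slc25a39/Slc25a40 and -0.20 for Slc25a10/Slc25a11. Leaving out Exercise replicate 2 brought the first of these past the test (-0.39, exact permutation adjusted p = 0.0292), leaving out Sedentary replicate 1 the second (-0.18, 0.0341) and leaving out Exercise replicate 3 the last (-0.26, 0.0468).

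**Figure D4:**
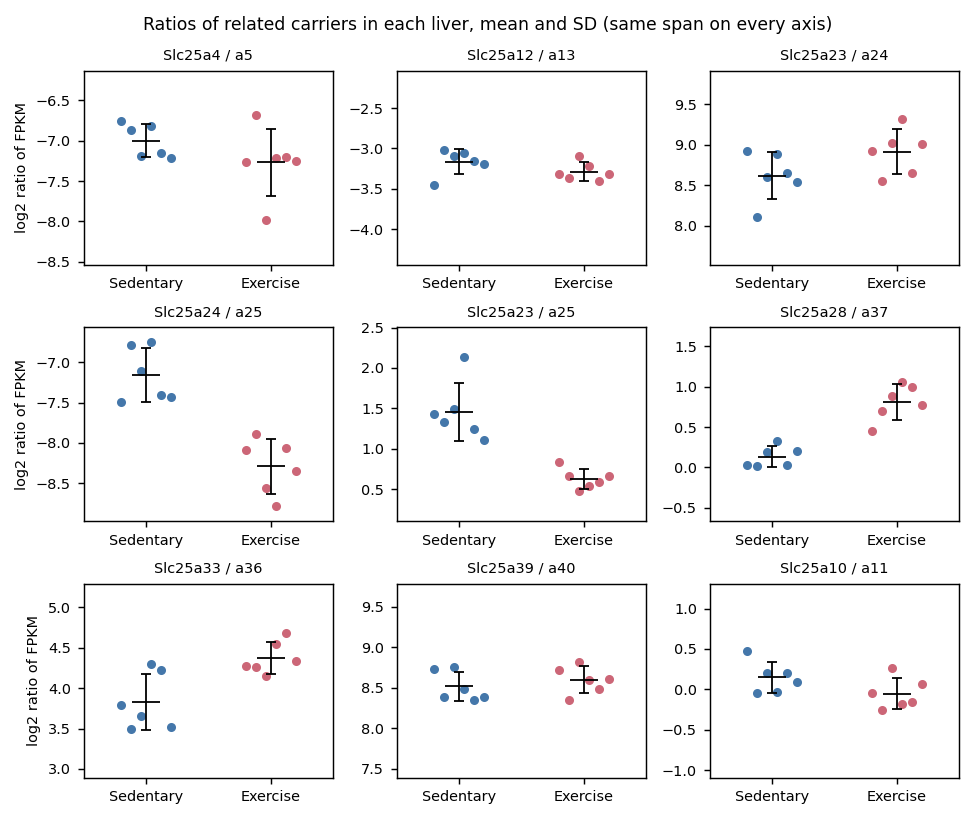
log2 ratio of FPKM of 9 pairs of related carriers in each of 6 Sedentary (blue) and 6 Exercise (red) livers, with mean and SD in black. Every axis spans the same number of log2 units. Slc25a24 / a25, Slc25a23 / a25 and Slc25a28 / a37 separate the groups completely, while the other 6 overlap.

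Genes that work beside the SLC25 carriers were read from the same fit. Of 3 tested family members that carry other names, 1 rose and 0 fell (33.3% called, against 42.4% of all genes). Ucp2, the uncoupling protein of many tissues, rose by 0.41 on the log2 scale (edgeR adjusted p = 0.00414). It is named here because it was the only call. Among 12 mitochondrial carriers and channels of other families 2 rose and 4 fell, which at 50% called is near the 42.4% of all genes. Mcu, the pore of the calcium uniporter, went from 13.9, 14.8 and 19.6 CPM to 8.32, 8.93 and 9.22 (log2 fold change -0.82 ± 0.084, edgeR adjusted p = 8.34e-07), without overlap.
In the TIM22 route, by which SLC25 proteins enter the inner membrane, 0 of 13 genes rose and 6 fell (46.2%, against 21.3% of all genes that fell). Tomm40, the channel of the outer membrane, fell by 0.50 on the log2 scale (edgeR adjusted p = 3.32e-05) and had the largest change of the list.
Of the 4 malate-aspartate shuttle enzymes 1 rose and 1 fell (50% called, against 42.4% of all genes). Got1, the cytosolic aspartate aminotransferase, went from 94.6, 176 and 227 CPM to 426, 569 and 700 (log2 fold change 1.76 ± 0.22, edgeR adjusted p = 7.94e-05), with every runner above every resting mouse. Of 5 genes that make or use exported citrate, 4 fell (80.0%, against 21.3% of all genes that fell) and 0 rose. Cs, citrate synthase, fell by 0.66 on the log2 scale (edgeR adjusted p = 7.94e-06). Acly, which cleaves citrate in the cytosol, fell by 0.67 (edgeR adjusted p = 0.0297), with overlapping groups and a call lost in 8 of the 12 fits that left out 1 library. Over these 5 lists 4 of 37 genes rose (10.8%, against 21.1% of all genes) and 15 fell (40.5%, against 21.3%), or 2 and 23 with scaling by library size alone. The number that rose was 2 without Sedentary replicate 1, 2 or 3 or Exercise replicate 2, and the number that fell lay between 11 and 15 with 1 library left out.

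**Figure D5:**
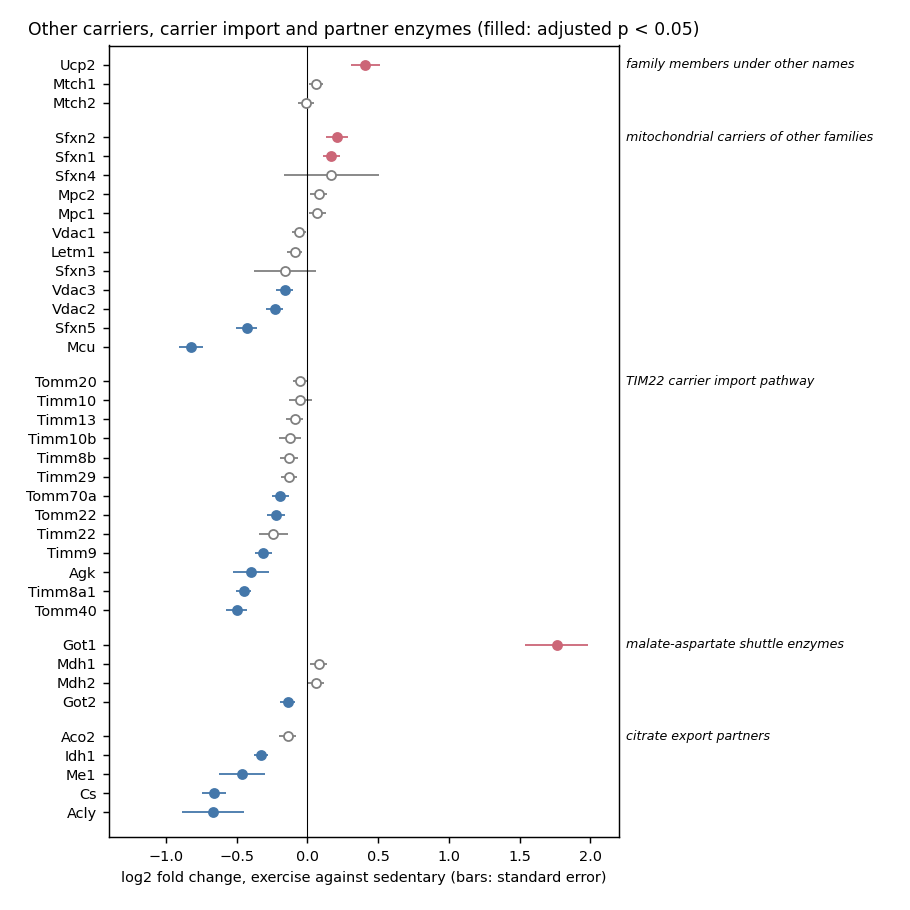
log2 fold change (exercise against sedentary) of genes beside the SLC25 carriers: family members under other names, other mitochondrial carriers, the TIM22 import route, malate-aspartate enzymes and citrate partners. Points are edgeR estimates from 6 livers a group, bars are standard errors, filled points passed an adjusted p of 0.05. Got1 (1.76) stands alone to the right, and all 13 TIM22 genes lie left of 0, from -0.05 to -0.50.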

How the data were processed

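mRNA libraries were made by the authors from TRI Reagent extracts of 12 livers (6 Sedentary, 6 Exercise, grouped by sample title). The submitters' processing notes name Bowtie2 2.3.4.3, RSEM 1.3.1 and build mm10 without giving their roles, and strand handling is not given in the sources used here. The deposited tables hold an estimated count per gene and library, 31.34% of them not whole, and an FPKM value. RSEM divides reads shared by similar genes, which adds uncertainty to counts that are not whole. The scarce members Slc25a4, Slc25a34, Slc25a35 and Slc25a40 had whole counts in every library. Rounded counts entered a robust quasi-likelihood fit in edgeR 4.0.16 (R 4.3.3), with TMM scaling, the filterByExpr filter and Benjamini-Hochberg adjustment over 12344 genes. The fit was tested on simulated data with the same dispersion for all genes and a far smaller part of them changed. That test does not cover scaling or false calls where as many genes change as here. CPM used TMM library sizes, and pair ratios used FPKM with an exact permutation test written in Python 3.11.15 with numpy 2.4.6. Libraries were of similar depth, and members with few counts are least precise.

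Members and gene lists were chosen with earlier results of these data known, so counts over them are descriptions. Lowest, median and highest values are printed for the 12 largest changes, the 5 highest FPKM means and the genes of changed pairs, and other members are given by their log2 fold change. Lists beside the family name genes past 0.5 on the log2 scale. The values of Slc25a4 and Slc25a11, the FPKM of Slc25a1 and the markers and overlapping genes named were chosen outside that rule, after values were seen. Slc25a15, Slc25a17 and Slc25a20 were left out by the rule that chose the members, and the values of 1 further member, which the counts include, are not reported here. Alternatives were other scalings, DESeq2 1.42.0, limma 3.58.1 (voom, and log2 of FPKM plus 0.1 or 1), other filters, a threshold of 0.01, a replicate block and leaving out each library. The 6 mice of a group are separate animals per the study's methods. Promoter windows came from RefSeq (GRCm38.p6) and gene positions from GENCODE, where 19 of 37 members overlap another gene.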

Additional observations from a re-analysis of the deposited data

Results flagged for a closer look

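In 3 of the 74 groups of 6 values checked (37 genes in both conditions), a single liver stood apart from its group by more than Dixon's 95% critical value for 6 samples. Chance gives about 1 in 20 groups, or 3.7 here. The values below are the gap to the nearest liver over the whole range of the group. For Slc25a46 it was 0.682, with 34.0 CPM in Exercise replicate 3 and 29.1 in the liver nearest to it. For Slc25a39 it was 0.741, with 466 CPM in Sedentary replicate 3 against 438. For Slc25a12 it was 0.66, with 19.9 CPM in Sedentary replicate 5 against 17.6. The call for Slc25a39 was kept with that liver left out, and neither Slc25a46 nor Slc25a12 passed the test with or without theirs.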

How the results depend on the processing

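Of the 21 SLC25 genes that changed, 19 kept their direction and their call under every alternative run, the exceptions being Slc25a29 and Slc25a23. Slc25a35 was not tested where at least 10 counts were asked of every library. The number of members called lay between 20 and 23 over the alternatives at 0.05, was 19 at a threshold of 0.01, and lay between 19 and 21 with 1 library left out. Over all genes it lay between 4739 and 5222 with 1 library left out, over the lists of related genes between 14 and 17 and over carrier pairs between 3 and 5. Slc25a29 lost its call under 7 alternatives. Deviations of livers with the same replicate number correlated weakly (between -0.099 and 0.16), which cannot decide whether the mice were paired. With a replicate block 20 members, 4956 genes and 16 related genes were called. For ratios a replicate block gave 0 changed pairs, since 6 sign flips cannot go below p = 0.0312, or 0.0703 after adjustment by this exact permutation test. Among members that did not pass, Slc25a24 passed under 4 alternatives and without Sedentary replicate 4 or Exercise replicate 2, Slc25a12 under 4 and without Exercise replicate 3, Slc25a40 under 2, Slc25a36 without Sedentary replicate 6 or Exercise replicate 1, and Slc25a14 without Sedentary replicate 3. The cause was not tested.

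A change of sign was found for 6 members, none of them called. With library size alone the log2 fold changes were -0.093 for Slc25a16, -0.065 for Slc25a3, -0.0061 for Slc25a42, -0.065 for Slc25a26 and -0.0085 for Slc25a28. With limma on log2(FPKM + 0.1) they were -0.077 for Slc25a16, -0.064 for Slc25a3, -0.008 for Slc25a42, -0.12 for Slc25a26, -0.0034 for Slc25a28 and -0.00093 for Slc25a46. With log2(FPKM + 1) they were -0.073, -0.064, -0.0077, -0.086, -0.0031 and -0.00089 in the same order. The upper quartile gave -0.017 for Slc25a16. With 1 library left out Slc25a16 lay between -0.03 and 0.061 and Slc25a26 between -0.0099 and 0.1. These scalings set the median of all genes to -0.098 (library size) and -0.093 or -0.066 (FPKM).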
